A study of Cavia porcellus with 9 samples.

Results

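The genes described here encode the enzymes that remove superoxide, hydrogen peroxide and lipid peroxides from retinal cells, the glutathione and thioredoxin systems that supply these enzymes with electrons, and the NRF2 and KEAP1 proteins that set the transcription of many of them. The members were chosen by gene symbol: the superoxide dismutases, glutathione peroxidases, peroxiredoxins, thioredoxin reductases and glutathione S-transferases by their shared symbol stems, and 13 further genes by name. The symbols used no measured value, though the list was drawn up with earlier results of these data known. The rule found 41 genes among the 19962 in the table, and all 41 were among the 15469 genes with counts high enough to be tested. Gpx6 was not analysed here.

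The retinas came from guinea pigs (Cavia porcellus), males of a tri-color Dunkin-Hartley stock, a species used in studies of eye growth and myopia. The animals arrived at 2 weeks of age and then spent 8 weeks in green light, blue light or white light on a cycle of 12 h light and 12 h dark; the sampled age is given as 12 weeks. RNA from whole retinas was sequenced in 3 libraries per light group, and white light is the reference for both colours. In each group, 2 of the 3 libraries carry the same animal label (libraries 1 and 2 of green, 2 and 3 of blue, 1 and 2 of white), which leaves 6 animal labels among the 9 libraries. The blue and white pairs are titled as right and left eye, but both libraries of the green pair as right eye, and no source used here says whether they come from the same retina. The spread between libraries is therefore partly a spread within animals, and in green possibly within an eye, and p-values measure no more than that spread.

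Photoreceptors use much oxygen, hold easily oxidised polyunsaturated lipids in their outer segments and are exposed to light, so the retina depends on several layers of antioxidant defence. Superoxide dismutases turn superoxide into hydrogen peroxide, which catalase, glutathione peroxidases and peroxiredoxins then remove; glutathione and thioredoxin donate the electrons and are recharged with NADPH by their reductases. Under oxidative or electrophilic stress, KEAP1 releases the transcription factor NRF2 (gene Nfe2l2), which raises the transcription of genes such as Nqo1, Hmox1, Gclc, Gclm, Srxn1 and Txnrd1. Guinea pigs, like humans, cannot make vitamin C and take this water-soluble antioxidant from the diet.

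Libraries held between 62155041 and 74979806 counts. Summed rod marker levels lay between 68805 and 89630 CPM (the counts of a gene relative to those of its library, with libraries scaled by TMM factors), so rod genes were abundant as in a retina, while summed markers of the pigment epithelium, the pigmented layer behind the retina, lay between 91.0 and 453 CPM. No pair of libraries agreed within sampling noise. The 41 members together took between 0.2995% and 0.335% of the counts of a library. Their summed level was 2887, 3067 and 3219 CPM in green libraries 1 to 3, and 3050, 3227 and 3330 CPM in blue libraries, against 3003, 3418 and 3068 CPM in white libraries. The groups overlapped. CPM values are not corrected for transcript length, so levels are compared between libraries and not between genes. In whole tissue, fewer cells of a type and less RNA per cell cannot be told apart.

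None of the 41 members differed between lights at an adjusted p under 0.05 (edgeR's quasi-likelihood F test, Benjamini-Hochberg adjustment over all 15469 genes). The count was 0 in green against white, where 0.00646% of all genes were called, 0 in blue against white, where 0.00646% were called, and 0 in green against blue, where 0% were called. Testing the 3 lights jointly also called 0 members, against 0.00646% of all genes. The smallest joint p was that of Prdx6, at 0.0694 unadjusted and 0.848 adjusted. At an unadjusted p under 0.05, green against white had 1 member (2.44% of the members, against 5.81% of all genes), blue against white had 0 (against 4.45%), and green against blue had 2 (4.88%, against 7.18%). DESeq2 and limma voom called 0 members at an adjusted p under 0.05 in each of the 3 comparisons, and had 2 and 2, 1 and 1, and 2 and 4 members at an unadjusted p under 0.05 in the same order of comparisons.

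For most members the fit bounds the size of a difference, with the 9 libraries taken as independent. Because libraries share animal labels, these intervals cover the spread between libraries and not that between animals. The 95% intervals of the fitted difference lay within 1.5-fold in either direction for 33 of 41 members in green against white, for 32 in blue against white and for 31 in green against blue. They lay within 2-fold for 37 members in each comparison, the exceptions being Gpx5, Mgst1, Sod3 and Txnrd3. The median absolute log2 difference of the members was 0.10 in green against white, 0.064 in blue against white and 0.097 in green against blue, and the interval reached a median of 0.25 to either side in each. Median differences were thus smaller than the interval's reach, and differences of that size were not resolved with these libraries.

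**Figure D1:**
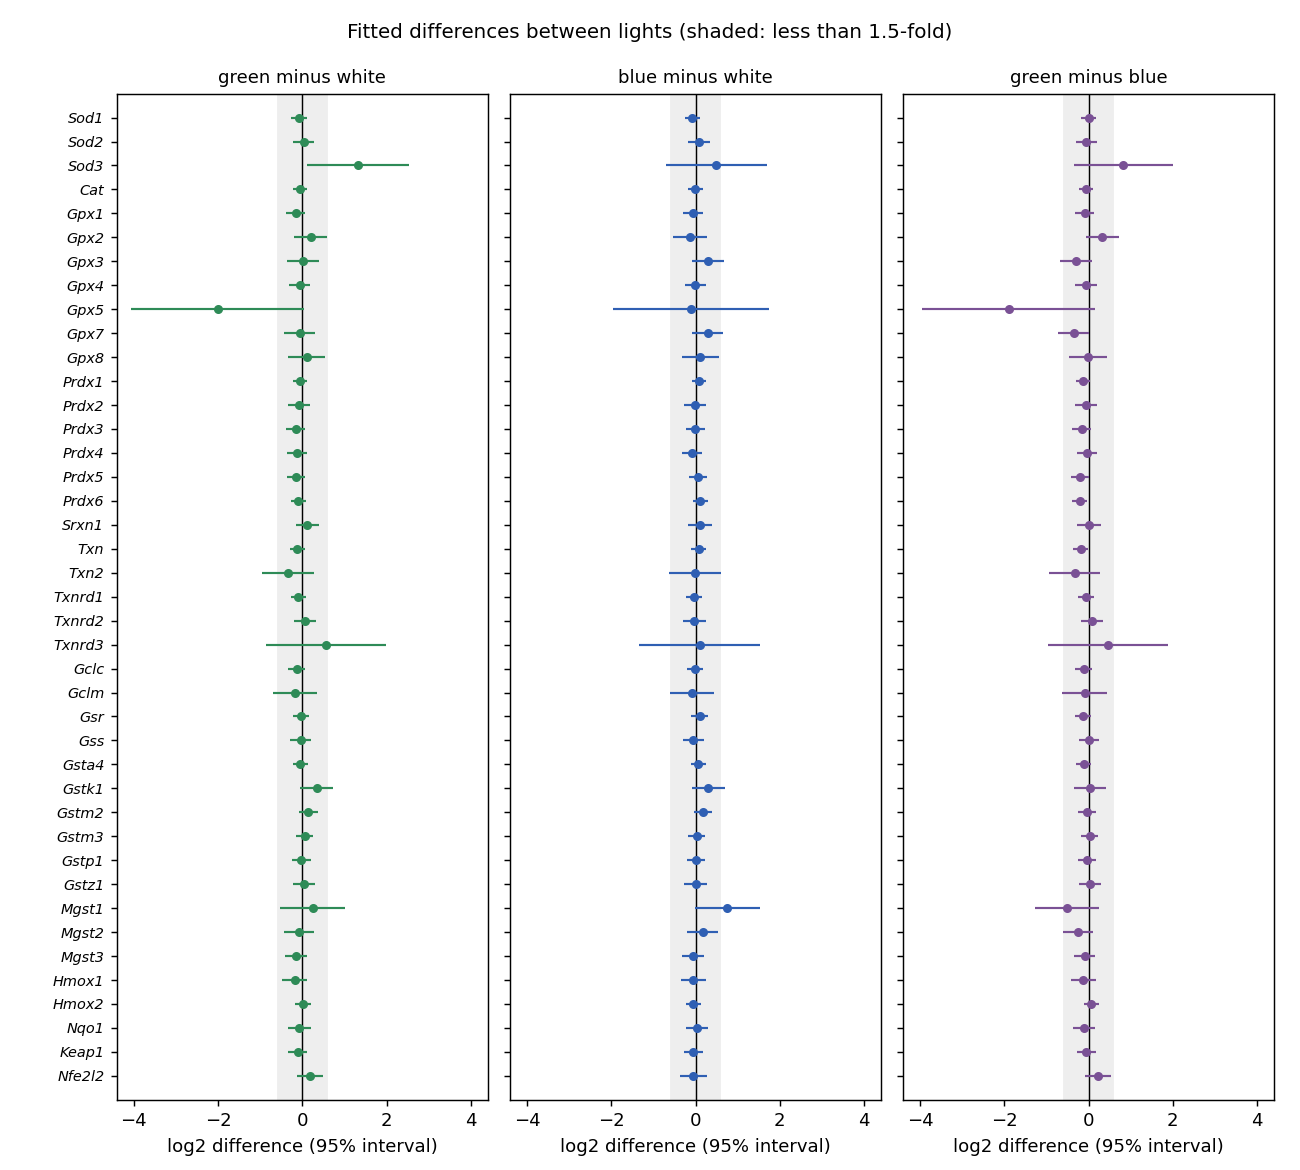
Fitted log2 difference (points) and 95% interval (bars) of each of the 41 members for the 3 comparisons of lights; shading marks differences of less than 1.5-fold. Most intervals lie inside the shading and span 0, and those of Gpx5, Mgst1, Sod3 and Txnrd3 reach beyond 2-fold in each comparison.

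Among the regulators, Nfe2l2, the gene of NRF2, had 42.5, 29.6 and 33.2 CPM in green libraries 1 to 3 and 30.2, 26.8 and 33.1 CPM in blue libraries, against 34.5, 28.1 and 30.4 CPM in white libraries. Green library 1 was the highest, and the groups overlapped. Keap1, the adaptor that directs NRF2 to degradation, had 81.4, 88.4 and 100.2 CPM in green and 93.6, 95.6 and 91.8 CPM in blue, against 94.3, 109.8 and 87.0 CPM in white, again with overlap. Genes that NRF2 is known to activate follow. Nqo1, a quinone reductase, had 24.2, 24.5 and 26.7 CPM in green and 29.8, 24.8 and 26.9 CPM in blue, against 29.0, 28.4 and 21.9 CPM in white. Hmox1, the inducible heme oxygenase that breaks down heme, had 10.9, 12.1 and 13.5 CPM in green and 12.4, 14.1 and 13.2 CPM in blue, against 11.9, 15.7 and 13.9 CPM in white. In both genes the 3 groups overlapped, and the white libraries held values near both ends of the range. Hmox2, the constitutive heme oxygenase, had the narrow range of 42.4 to 48.9 CPM over the 9 libraries.

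Srxn1, which repairs over-oxidised peroxiredoxins and is another NRF2 target, had 42.9, 49.5 and 47.7 CPM in green and 37.7, 50.2 and 51.0 CPM in blue, against 38.7, 43.0 and 47.5 CPM in white. The blue libraries covered the whole range of the gene, so the groups overlapped. Gclc, the catalytic subunit of the enzyme that limits glutathione synthesis, had 65.4, 60.4 and 59.1 CPM in green and 69.8, 65.1 and 66.0 CPM in blue, against 67.6, 74.0 and 62.0 CPM in white. Its fitted log2 difference was -0.14 ± 0.09 (SE) in green against white, with an adjusted p of 0.923 (edgeR); it was -0.072 without white library 2, -0.076 with pigment epithelium markers as a covariate and -0.25 without green library 1 and white library 3, whose titles end in -B. Gclm, the modifier subunit of that enzyme, was measured at a low level. Its levels were 4.04, 3.51 and 2.72 CPM in green libraries 1 to 3. They were 4.39, 3.09 and 3.46 CPM in blue and 5.08, 3.38 and 3.12 CPM in white, with overlapping groups. Gss, which completes glutathione, lay between 19.6 and 25.4 CPM. Gsr, which regenerates reduced glutathione, averaged 36.2 ± 0.657 CPM in green and 39.5 ± 1.68 CPM in blue, against 36.9 ± 2.93 CPM in white (SD, n = 3 each).

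The superoxide dismutases differed in how steady they were. Sod1, the cytosolic copper-zinc enzyme, had 369, 408 and 419 CPM in green and 394, 389 and 414 CPM in blue, against 422, 457 and 383 CPM in white. Sod2, the mitochondrial manganese enzyme, had 116, 110.3 and 111 CPM in green and 131, 101 and 118 CPM in blue, against 118, 118 and 93.9 CPM in white. The fitted log2 differences of both lay close to 0 in the 3 comparisons, with overlapping groups.

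Sod3, the secreted extracellular enzyme, had the largest ratio between libraries of the members with a mean of at least 1 CPM, 11.2-fold from lowest to highest. It had 1.54, 1.12 and 3.30 CPM in green and 1.08, 1.38 and 0.895 CPM in blue, against 0.295, 0.636 and 1.46 CPM in white. Green library 3 was the highest and white library 1, with 20 counts, the lowest; white library 3 lay above green library 2, so the groups overlapped. The fitted difference in green against white was 1.32 ± 0.55 (log2, SE; 95% interval 0.12 to 2.52), the member with the smallest unadjusted p in that comparison (0.0345), and the adjusted p was 0.852 (edgeR). The difference was 0.74 without green library 3, 2.08 without white library 3, 0.70 with pigment epithelium markers as a covariate and 2.24 without the -B libraries, with no adjusted p under 0.395 in the alternatives.

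Peroxide-reducing enzymes were mostly steady. Catalase (Cat), the peroxisomal enzyme, had 133, 142 and 141 CPM in green and 142, 146 and 145 CPM in blue, against 144, 156 and 133 CPM in white, a 1.18-fold range. Gpx1, the main cytosolic glutathione peroxidase, had 89.1, 104 and 108 CPM in green and 97.5, 113 and 112 CPM in blue, against 102, 124 and 111 CPM in white. Gpx4, which reduces lipid hydroperoxides within membranes and guards against ferroptosis, had 222, 276 and 289.7 CPM in green and 251, 275 and 295 CPM in blue, against 254, 309 and 262 CPM in white. In Gpx1 and Gpx4 green library 1 was the lowest of the 9 libraries and white library 2 the highest. Green library 1 held the lowest value of 12 of the 41 members, and white library 2 the highest value of 13. The same count was not made over all genes. Between these 2 libraries the median absolute log2 difference was 0.234 over the members and 0.264 over all genes tested.

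The minor glutathione peroxidases were measured at low levels. Gpx3, the secreted plasma form, had 3.45, 3.44 and 4.39 CPM in green and 4.18, 4.62 and 5.02 CPM in blue, against 3.37, 3.81 and 4.05 CPM in white. Gpx7, which resides in the endoplasmic reticulum, had 6.89, 5.95 and 9.34 CPM in green and 9.12, 8.94 and 10.2 CPM in blue, against 7.93, 7.89 and 7.37 CPM in white. For both, each blue library lay above each white library, while green overlapped both. The log2 differences in blue against white were 0.30 ± 0.17 for Gpx3 and 0.29 ± 0.17 for Gpx7 (SE), with adjusted p-values of 1.0 (edgeR). Gpx8, also of the endoplasmic reticulum, ranged over 4.21 to 6.90 CPM within the green group alone. Gpx2, a form best known from the gut lining, averaged 8.06 ± 1.05 CPM in green and 6.44 ± 1.10 CPM in blue, against 7.04 ± 1.11 CPM in white (SD, n = 3 each).

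Gpx5, a form best known from the epididymis, was near the limit of detection. It had 10, 5 and 0 counts in green libraries and 10, 19 and 27 counts in blue libraries, against 19, 8 and 29 counts in white libraries. The 0 counts of green library 3 allow up to 3 counts, or 0.0428 CPM, in that library, if a unit of the table is 1 fragment. Its fitted log2 difference in green against white was -2.01 ± 0.94 (SE), which depends on how a count of 0 is treated, with an adjusted p of 0.852 (edgeR).

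**Figure D2:**
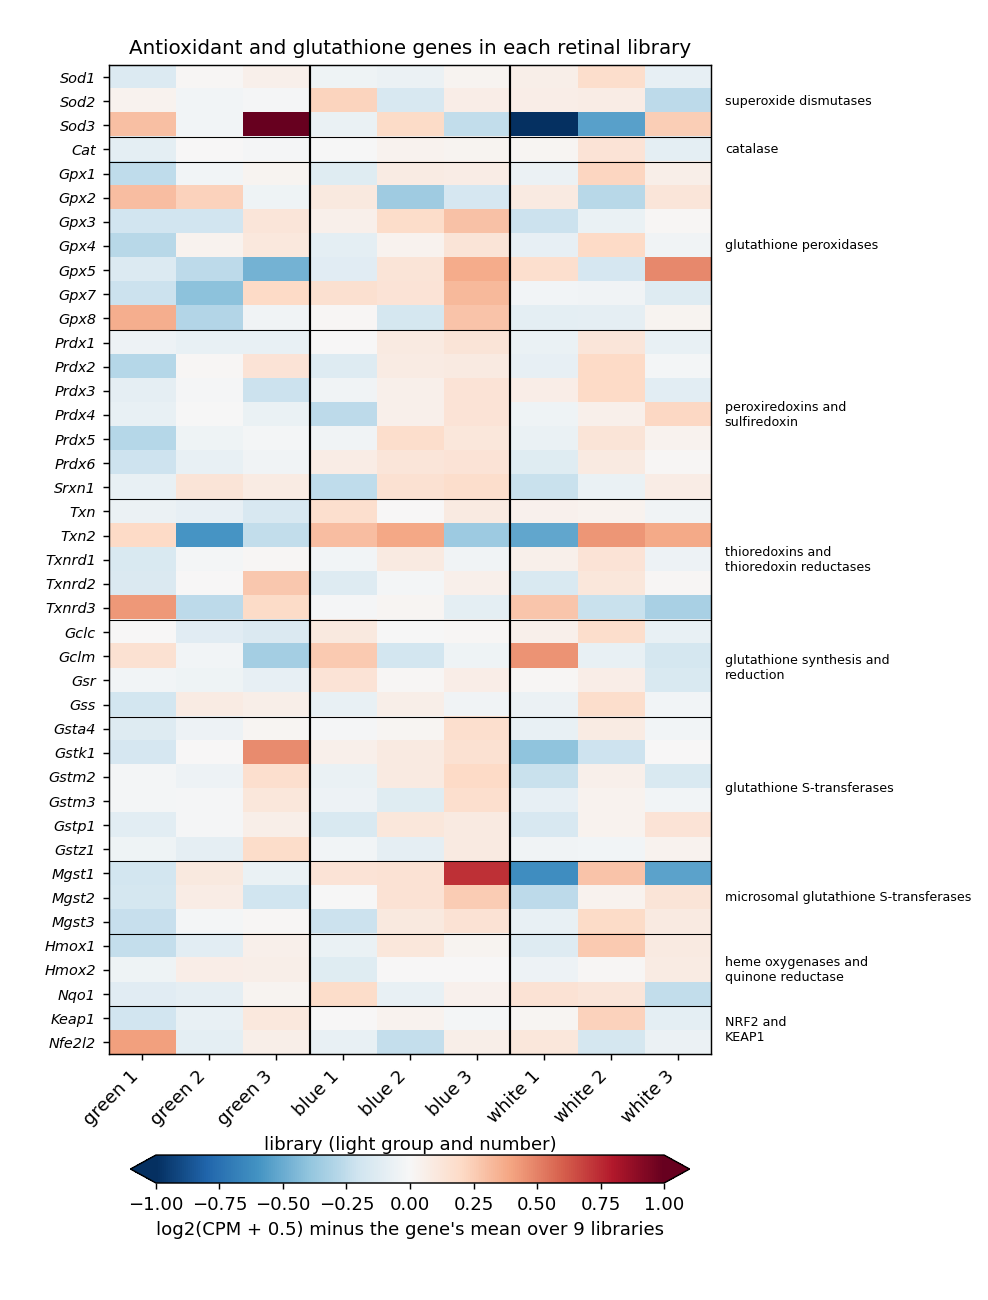
Level of each of the 41 members (rows, by family) in each library (columns), as log2(CPM + 0.5) minus the gene's mean over the 9 libraries. Rows are pale for most genes; Sod3, Mgst1, Txn2 and Gpx5 vary most, and their dark cells lie in more than 1 light group.

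The peroxiredoxins, which reduce peroxides through a reactive cysteine, include the member with the smallest p in green against blue. Prdx6, which also has phospholipase activity and takes electrons from glutathione, had 71.9, 78.6 and 81.0 CPM in green and 87.5, 90.2 and 91.0 CPM in blue, against 76.1, 88.0 and 83.8 CPM in white. Each green library lay below each blue library, and the white libraries ranged from green values to blue values. The fitted difference of green minus blue was -0.21 ± 0.08 (log2, SE), with an unadjusted p of 0.0240 and an adjusted p of 0.654 (edgeR). The value lay between -0.25 and -0.16 over the alternative settings, and the smallest adjusted p among those settings was 0.486 (DESeq2). Prdx1, the abundant cytosolic form, had 186, 183 and 183 CPM in green and 193, 205 and 211 CPM in blue, against 184, 209 and 183 CPM in white. Green and blue did not overlap here either, and the difference was -0.14 ± 0.08 with an adjusted p of 0.736; with the pigment epithelium markers as a covariate it was -0.085.

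The other peroxiredoxins overlapped between groups. Prdx5, found in mitochondria and peroxisomes, had 112, 132 and 134 CPM in green and 133, 154 and 147 CPM in blue, against 129.5, 148 and 139.6 CPM in white. Its highest green library just exceeded its lowest blue library. Prdx3, the mitochondrial form, had 34.4, 36.3 and 31.5 CPM in green and 35.7, 38.0 and 40.2 CPM in blue, against 38.2, 42.1 and 33.9 CPM in white. Prdx2 lay between 154 and 215 CPM, and Prdx4, the form of the endoplasmic reticulum, between 69.0 and 95.8 CPM. In green against blue, 6 of the 7 genes of the peroxiredoxin and sulfiredoxin family had negative fitted differences. So did 30 of all 41 members and 7825 of the 15469 genes tested. None of the 7 passed the adjusted threshold.

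Txn, the cytosolic thioredoxin that recharges most peroxiredoxins, was the other member with an unadjusted p under 0.05 in green against blue. It had 33.8, 33.3 and 31.5 CPM in green and 39.6, 35.4 and 37.6 CPM in blue, against 36.3, 36.1 and 34.5 CPM in white. The green libraries lay below all libraries of the other groups. The fitted difference of green minus blue was -0.19 ± 0.08 (log2, SE; unadjusted p 0.0414, adjusted p 0.686), and that of green minus white was -0.12 ± 0.08 (adjusted p 0.946, edgeR). Txnrd1, the cytosolic reductase that recharges thioredoxin, lay between 66.8 and 81.5 CPM with overlapping groups. Txnrd3, a reductase best known from testis, had a mean under 1 CPM and between 8 and 44 counts per library.

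**Figure D3:**
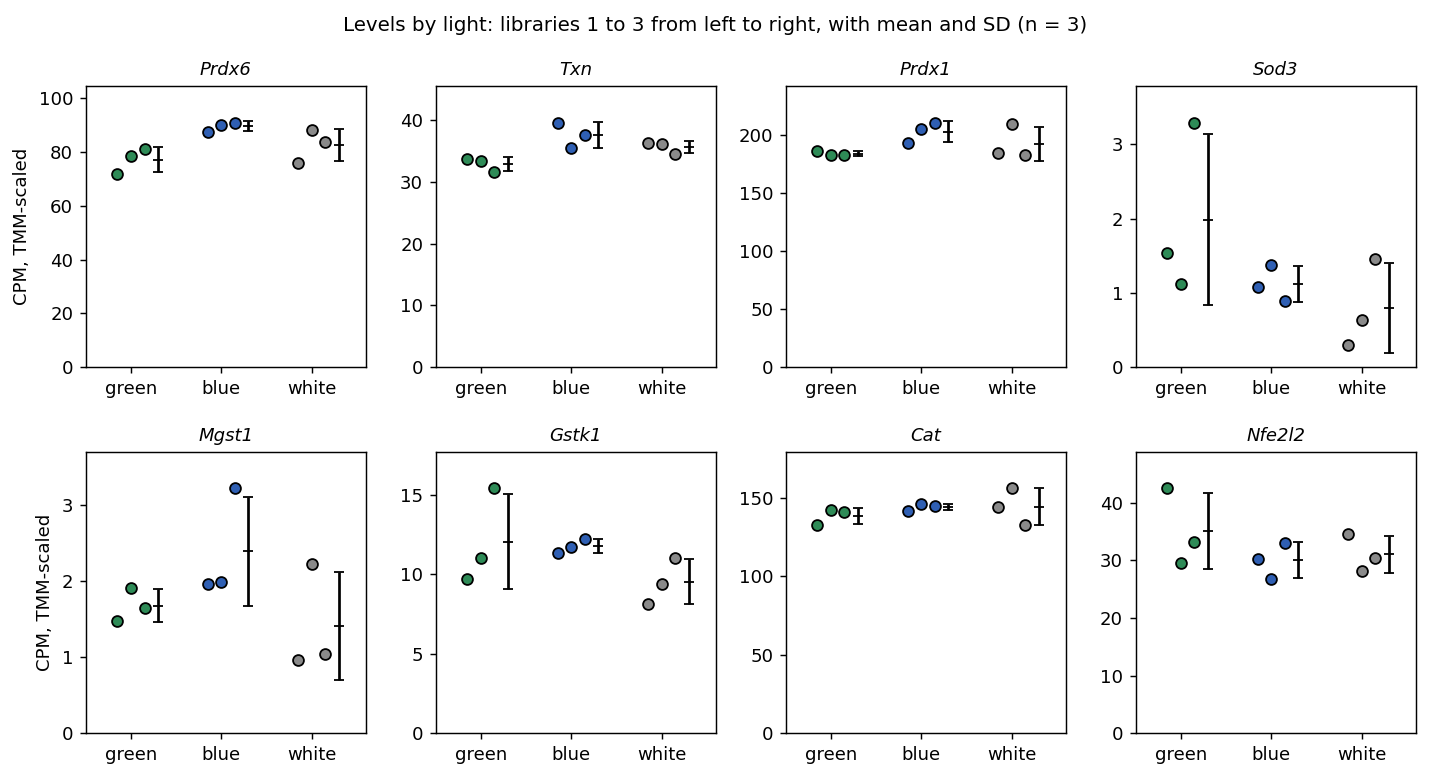
Level (CPM, TMM-scaled, axes from 0) of 8 members in the libraries of each light group, with the mean and SD of 3 libraries beside the points. Prdx6, Txn and Prdx1 have green points below all blue points; Sod3, Mgst1 and Gstk1 have wide spreads in at least 1 group; Cat and Nfe2l2 overlap across groups.

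Markers of Müller glia, the glial cells of the retina, moved in the same direction between the colours. Of 13 listed markers, 11 were in the table and tested, and none of the defining markers among them was at 0. Of the 11, 2 had a positive difference of green minus blue, and the median of the 11 was -0.22 on the log2 scale. Their summed level was 10369, 11068 and 11283 CPM in green and 11308, 12752 and 12787 CPM in blue, against 10228, 12179 and 10585 CPM in white. Green and blue did not overlap, but the highest green library lay just below the lowest blue library. Of all single genes tested, 14.2% did not overlap between green and blue. The part of the Müller glia markers in the Prdx6, Txn and Prdx1 differences was not tested. Of the 13 pigment epithelium markers, 10 had a negative difference of green minus blue, with a median of -0.55 and overlapping summed levels.

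Groups whose libraries did not overlap were counted next. In green against white it was 1 member, Txn (2.44% of the members, against 10.1% of all genes). In blue against white it was 3 members, Gpx3, Gpx7 and Gstk1, all higher in blue (7.32%, against 9.9%). In green against blue it was 6 members, Gpx5, Gsr, Mgst1, Prdx1, Prdx6 and Txn, all lower in green (14.6%, against 14.2%). These shares lie below or near those of all genes and are not read as a result about these enzymes.

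Txn2, the mitochondrial thioredoxin, stood out by its spread within groups. It had 68.0, 39.0 and 49.8 CPM in green and 73.4, 77.4 and 45.7 CPM in blue, against 41.1, 80.5 and 76.7 CPM in white. Values fell into a low range of 39.0 to 49.8 CPM in 4 libraries and a high range of 68.0 to 80.5 CPM in 5 libraries, with each light group present in both ranges. Libraries that share an animal label (in green both titled as right eye) lay on opposite sides in each of the 3 pairs: green library 1 was 1.74-fold above green library 2, blue library 2 was 1.69-fold above blue library 3, and white library 2 was 1.96-fold above white library 1. These libraries held between 2502 and 5708 counts of Txn2, so counting error is small beside the differences. Of 13560 genes with a mean of at least 1 CPM, 69 (0.509%) differed at least 1.5-fold within all 3 pairs. The mitochondrial partners of Txn2 did not vary in this way: Txnrd2, its reductase, lay between 27.0 and 36.2 CPM, and Prdx3, the peroxiredoxin it recharges, between 31.5 and 42.1 CPM, each a 1.34-fold range. The pattern was noticed after the values were seen, and it was not tested.

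**Figure D4:**
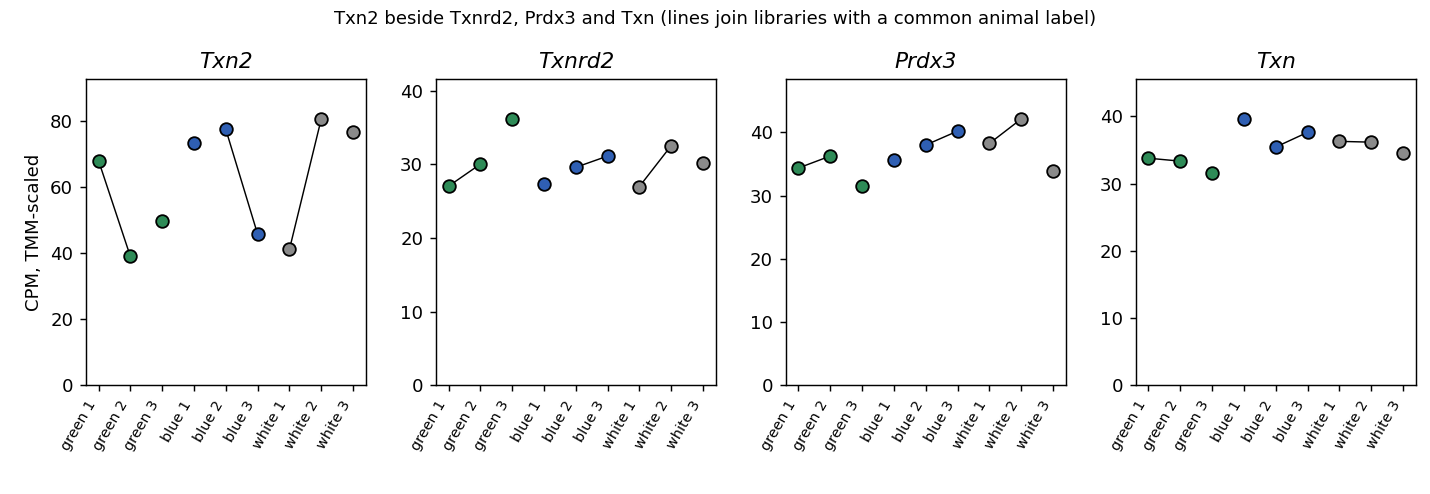
Level (CPM, TMM-scaled, axes from 0) of Txn2, of its mitochondrial partners Txnrd2 and Prdx3, and of the cytosolic Txn in the 9 libraries, with lines joining libraries of a common animal label. Txn2 changes by 1.69-fold to 1.96-fold along each line, and the other genes stay near level.

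The glutathione S-transferases attach glutathione to electrophiles such as products of lipid peroxidation. In blue against white all 6 soluble forms had positive fitted differences, a count that was 5 under DESeq2 size factors and under upper-quartile scaling, and none passed the threshold. Gstm2 had 291, 284 and 330.4 CPM in green and 281, 313 and 338 CPM in blue, against 252, 304 and 265 CPM in white, with log2 differences of 0.14 ± 0.10 in green against white and 0.18 ± 0.10 in blue against white (SE). White library 2 lay inside the range of both colours. The green value was 0.066 without green library 3, 0.080 without white library 1 and 0.22 without white library 2, and the blue value was 0.12 without blue library 3 and 0.12 without white library 1. Gstk1, a mitochondrial and peroxisomal form, had 9.72, 11.0 and 15.4 CPM in green and 11.3, 11.7 and 12.2 CPM in blue, against 8.16, 9.42 and 11.0 CPM in white. The blue libraries lay just above the white ones; green library 3 was the highest of all. Its log2 differences were 0.34 ± 0.18 in green against white and 0.30 ± 0.18 in blue against white, with adjusted p-values of 0.893 and 1.0 (edgeR). They rested partly on single libraries: the first was 0.12 without green library 3, and the second was 0.19 without white library 1; with the pigment epithelium markers as a covariate the first was 0.22, and without the -B libraries it was 0.58.

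The other soluble transferases varied little. Gsta4, which acts on the lipid peroxidation product 4-hydroxynonenal, lay between 102 and 125 CPM. Gstp1 lay between 157 and 193 CPM, Gstm3 between 80.05 and 97.7 CPM, and Gstz1, which also acts in tyrosine breakdown, between 11.9 and 14.5 CPM. Each had a range of 1.22-fold or 1.23-fold over the 9 libraries and overlapping groups. Transferases of a class are similar in sequence, and no source used here says whether the authors' counting split reads between them, so values of single class members such as Gstm2 and Gstm3 are uncertain.

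Of the microsomal transferases, Mgst1 gave the smallest p of any member in blue against white. It had 1.48, 1.90 and 1.64 CPM in green and 1.96, 1.98 and 3.21 CPM in blue, against 0.958, 2.22 and 1.05 CPM in white. White libraries 1 and 3 were the lowest of the 9 and blue library 3 the highest, while white library 2 exceeded 2 of the 3 blue libraries. The log2 difference was 0.76 ± 0.35 (SE; 95% interval -0.01 to 1.52), with an unadjusted p of 0.053 and an adjusted p of 1.0 (edgeR), and it was 0.48 without blue library 3 and 1.25 without white library 2. Mgst2 lay between 4.66 and 6.87 CPM and Mgst3 between 57.04 and 76.9 CPM, with overlapping groups.

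Marker levels of the pigment epithelium, a tissue with antioxidant enzymes of its own, differed between libraries. The summed level of its 13 markers was 107, 399.9 and 91.0 CPM in green and 314, 330.0 and 447 CPM in blue, against 210.3, 453 and 135 CPM in white. In a fit with light group and the mean log2 level of these markers as terms, 0 of 41 members had a slope past the adjusted threshold, where 0.0517% of all genes had a positive and 0% a negative slope. The markers themselves, from which the measure was made, had a median slope of 1.30, while the members had a median of 0.044 and 25 of 41 positive slopes. Mgst1 had the smallest p, with a slope of 0.60 ± 0.25 (SE; unadjusted p 0.0343, adjusted p 0.999, edgeR). The slope was 0.26 without white library 2 and 0.21 with counts summed per animal label. Its 2 lowest white libraries were also those with the lowest marker levels in the white group. Sod3 had a slope of -0.81 ± 0.41, which was -0.53 without green library 3, -0.43 without white library 3, -0.42 without the -B libraries and -1.34 with counts summed per animal label, and Prdx3 of 0.16 ± 0.08, followed by Txnrd3, Gclc, Gpx7, Cat, Sod1, Sod2 and Gsr, all with the same adjusted p of 0.999. Of these 10 members, the steepest slopes were those of Sod3, Txnrd3 and Mgst1, which have few counts.

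Spread between libraries was small for most of the members. The highest library was less than 1.5-fold above the lowest for 30 of 41 members, 1.5-fold to 2-fold for 6 and more than 2-fold for 4 (Sod3, Txnrd3, Mgst1 and Txn2), with Gpx5 at 0 in 1 library. The biological coefficient of variation, the variation between libraries beyond counting error, had a median of 11.2% over the members and 13.9% over all genes tested. These medians are not matched for level. At a mean of 1 CPM or more, the median ratio of highest to lowest was 1.35 over 39 members and 1.41 over 13560 genes. The median absolute log2 difference of the members between libraries was 0.141 for pairs of the same animal label, 0.158 for other pairs of the same light and 0.149 for pairs of different lights. Over all genes tested the values were 0.168, 0.170 and 0.172 in the same order. Libraries under different lights differed in these genes by about as much as libraries under the same light, and so they did over all genes. The pairs reuse the same 9 libraries.

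As a list, members had positive fitted differences in 15 of 41 genes (36.6%) in green against white, in 21 of 41 (51.2%) in blue against white and in 11 of 41 (26.8%) in green against blue. Over all genes tested the shares were 52.4%, 51.5% and 49.4% in the same order of comparisons. The median log2 difference of the members was -0.063, 0.00069 and -0.060, against 0.0090, 0.0048 and -0.0025 for all genes. Each pair of these comparisons shares the libraries of a light. Single libraries moved these counts: without white library 2, blue against white had 32 members with a positive difference and green against white had 21, and green against blue had 7 without green library 3, 16 without green library 1 and 14 without blue library 3. Green against blue also had 16 without both -B libraries and 16 with counts summed per animal label.

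Genes around these enzymes were read in 8 further lists. None of their genes passed the adjusted threshold in any comparison. The cofactors of NRF2 and its regulators had positive differences in 6 of 18 genes in green against white, 4 of 18 in blue against white and 8 of 18 in green against blue; Sqstm1, which binds KEAP1 in autophagy, had a log2 difference of -0.27 ± 0.09 in green against white (SE, adjusted p 0.837, edgeR). Genes of NADPH supply were positive in 10, 12 and 8 of 19, with Idh1, the cytosolic isocitrate dehydrogenase, at -0.21 ± 0.08 in green against blue. Cystine supply and glutathione turnover was positive in 11 of 20 in each comparison. Slc7a11, the cystine carrier of system xc-, had 1.87, 2.09 and 1.74 CPM in green and 1.42, 1.17 and 1.97 CPM in blue, against 3.01, 1.43 and 2.61 CPM in white, with overlap.

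Glutaredoxins and other thiol repair genes were positive in 11 of 22 in green against white, 14 of 22 in blue against white and 4 of 22 in green against blue. This list held the gene of smallest p, Txnip, which binds and inhibits thioredoxin. Txnip had 27.4, 33.7 and 20.8 CPM in green and 28.7, 33.3 and 32.5 CPM in blue, against 14.1, 14.3 and 20.9 CPM in white. Each blue library lay above each white library, and green library 3 lay within the white range. The differences were 0.73 ± 0.19 in green against white (adjusted p 0.764) and 0.94 ± 0.19 in blue against white (adjusted p 0.487, edgeR). Sesn1 and Sesn2, the sestrins that help to restore peroxiredoxin function, had log2 differences of 0.23 ± 0.08 and 0.34 ± 0.12 in blue against white, with adjusted p-values of 0.991 and 0.986.

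Selenoproteins and their synthesis machinery were positive in 8 of 21 in green against white, 13 of 21 in blue against white and 8 of 21 in green against blue. Selenos, a selenoprotein of the endoplasmic reticulum, had 24.9, 25.8 and 31.6 CPM in green and 32.3, 36.9 and 37.1 CPM in blue, against 36.0, 38.1 and 32.8 CPM in white. The green libraries lay below all others, with log2 differences of -0.38 ± 0.11 against white (adjusted p 0.814) and -0.37 ± 0.11 against blue (adjusted p 0.620, edgeR). Other detoxification enzymes were positive in 8, 15 and 7 of 22 genes. They include Cryz, the quinone reductase that is also the zeta-crystallin of the guinea pig lens, at 0.46 ± 0.15 in green against white (adjusted p 0.837); summed lens markers were 80.7, 101 and 89.4 CPM in green against 32.4, 75.6 and 38.5 CPM in white, and their part was not tested.

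Iron handling and lipid peroxidation was positive in 7, 10 and 6 of 16 genes. Dhodh, a mitochondrial enzyme of pyrimidine synthesis that also limits lipid peroxidation, was at -0.37 ± 0.12 in green against white (adjusted p 0.837), and Tfrc, the transferrin receptor, at 0.32 ± 0.12 (adjusted p 0.84). Sources of oxidants were positive in 9, 6 and 8 of 14 genes. Aox1, an aldehyde oxidase that makes hydrogen peroxide, had 45.2, 50.2 and 52.1 CPM in green and 73.6, 57.2 and 57.9 CPM in blue, against 45.1, 53.1 and 47.5 CPM in white. The blue libraries were the 3 highest, with a log2 difference of 0.37 ± 0.12 against white and an adjusted p of 0.935 (edgeR).

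**Figure D5:**
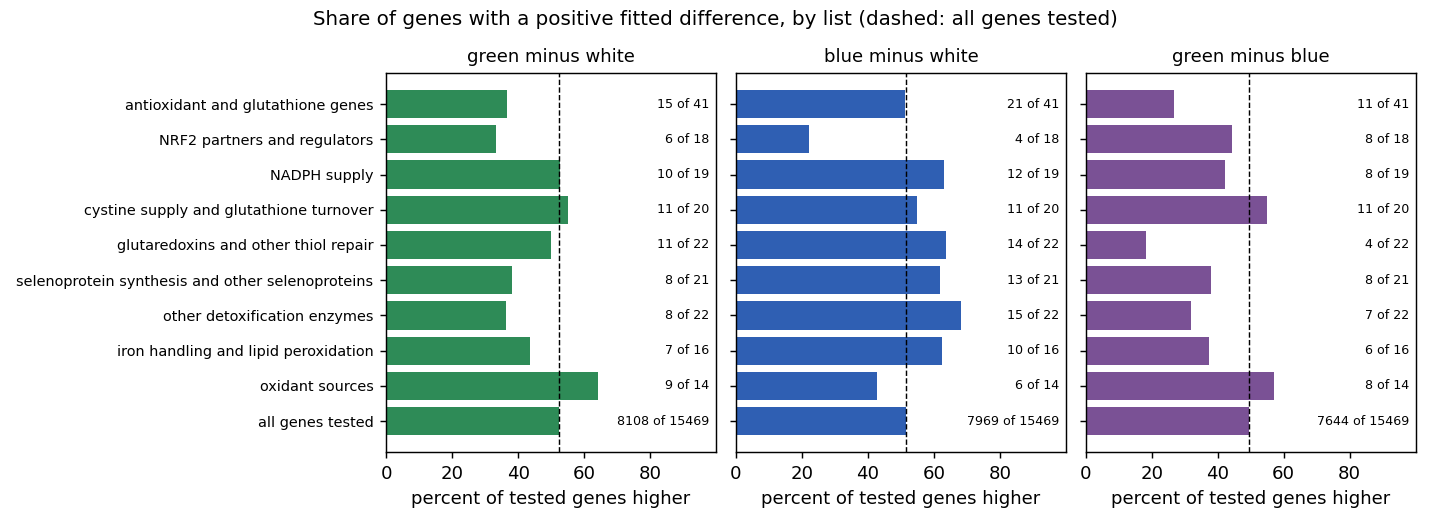
Percent of tested genes with a positive fitted difference in the members, in the 8 further lists and in all genes tested (dashed line), in a panel per comparison, with counts at the right. The members lie at 36.6%, 51.2% and 26.8%, against 52.4%, 51.5% and 49.4% of all genes; no gene of these lists passed the adjusted threshold.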

How the data were processed

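The deposited table holds whole-number counts per gene and library, per the file headers. Per the labels' protocols, RNA was extracted with Trizol and sequenced as paired-end Illumina libraries. No source used here names an aligner, a counter, a strand setting or a genome build. Low counts are uneven: over all libraries 2014 values equal 4 and 472 equal 3, so a unit of the table may not be 1 fragment, and fits were repeated on counts divided by 4. Libraries are numbered 1 to 3 in deposition order within a group. Titles of green library 1 and white library 3 end in -B, which no source used here explains.

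The 9 libraries were fitted together with light group as the term, using edgeR 4.0.16 in R 4.3.3, after filterByExpr (minimum count 10, minimum total 15) removed 4493 of 19962 genes, and with TMM scaling, quasi-likelihood F tests and Benjamini-Hochberg adjustment (threshold 0.05). The SE is the absolute log2 difference divided by the square root of F. DESeq2 1.42.0 and voom in limma 3.58.1 were alternatives. Intervals cover the spread between libraries; the count floor covers counting error only.

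The members, the marker lists and the 8 further lists were chosen with earlier results of these data known. Values in every library are given for 12 set members and for the 5 widest in range with a mean of at least 1 CPM. They are also given for up to 8 members of smallest p per comparison where these bear on a result. Up to 3 genes of smallest p per comparison may be named from each further list; Slc7a11 is named as the cystine carrier. Of the 41 member symbols, 40 match the RefSeq gene table of the guinea pig; Gpx5 does not.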

Additional observations from a re-analysis of the deposited data

How the results depend on the processing

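No member passed the adjusted threshold in any comparison under any of 21 alternatives per comparison, but some alternatives tested fewer members. The filter of 5 CPM in 3 libraries kept 35 members and counts divided by 4 kept 39. The fit of the 2 groups compared kept 40 in green against white. DESeq2 gave no adjusted p for Gpx5 in green against blue. The smallest adjusted p of a member was 0.395 in green against white (Sod3, without white library 3), 0.519 in blue against white (Mgst1) and 0.486 in green against blue (Prdx6, DESeq2). Single-gene values were recomputed only for the members of smallest p in each comparison and for the slopes of Mgst1, Sod3 and Prdx3. All 550 of these values kept their direction, which says nothing of the members not selected. Some of those did change direction: in blue against white, 21 of 41 members had a positive difference, and 32 without white library 2. The count over all genes was 1 in green against white, 1 in blue against white and 0 in green against blue, and moved as follows. It was 0 and 0 in the first and second comparison with a filter of 5 CPM in 3 libraries, with voom, with a fit of the 2 groups compared and with counts divided by 4; the fit of 2 groups gave 1 in the third. DESeq2 gave 24, 28 and 48. Leaving out the -B libraries gave 10 and 12, the suffix as a covariate gave 3 in blue against white and 1 in green against blue, and the pigment epithelium covariate gave 0 in green against white. Leaving out 1 library gave 0 to 6 genes in green against white, 0 to 7 in blue against white and 0 to 4 in green against blue. The cause was not tested. The median log2 difference of the members ranged from -0.097 to 0.0020 in green against white and from -0.029 to 0.072 in blue against white when 1 library was left out, with both upper values without white library 2; in green against blue it was -0.060, and ranged from -0.107 without blue library 1 to -0.014 without green library 1. No paired analysis was possible because the library numbers follow deposition order and pair nothing across groups. The planned pseudocount alternative for normalized values was not run, since the table holds counts. Depth limits Gpx5, with at most 29 counts in a library, and Txnrd3, with at most 44.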

Other observations

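Within pairs of libraries that share an animal label, 27 of 13560 genes with a mean of at least 1 CPM (0.199%) differed by at least the 1.69-fold of Txn2 in all 3 pairs. Among the 4367 genes with a mean of at least 50 CPM these were 3: Txn2, Pip4k2c and Entpd4, an intracellular nucleotide phosphatase. Entpd4, with a mean of 217 CPM, differed 2.31-fold in the green pair, 2.84-fold in the blue pair and 2.30-fold in the white pair. Its higher library was in each pair the one with the higher Txn2, and the same held for Micall2, with a mean of 2.55 CPM. No other gene of the 27 shared the sense of Txn2 in all 3 pairs, and Pip4k2c shared it in 1. These genes were singled out after their values were seen, and no test was made.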
